A study of Mus musculus with 7 samples.

Results

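The 41 genes described here take part in antigen presentation and in the response to interferon, and were measured in RNA of whole duodenum. They were chosen by symbol from the 14795 genes of the table, in 4 classes: 10 genes of MHC class I presentation and its activator Nlrc5, 5 immunoproteasome genes, 7 genes of MHC class II presentation and 19 interferon-induced genes. All 41 symbols were present, and all 41 passed the filter on low values, a value above 1 in at least 3 libraries, which 13399 genes passed. The list had been drawn up with the genotype contrast of these same libraries in view, so the differences between genotypes are given as a description, with no p-value. The duodena were those of 7 male mice labelled C57BL/6, 3 of them Ppara lox/lox and 4 Ppara I-KO, with 1 library per mouse. All 7 mice carried floxed Ppara alleles, the gene of PPARα, a nuclear receptor for fatty acids. The I-KO mice also carried Villin-Cre, whose promoter is active in the intestinal epithelium, so that other cells of the duodenum kept Ppara, while littermates without Cre served as lox/lox controls. Per the study's methods the mice ate a high-fat diet and were housed outside the pathogen-free zone. Per the labels food was withdrawn at noon, returned in the evening and the mice were killed at midnight, and no age is given. The comparison asks how these genes stood in the duodenum when PPARα was removed from the epithelium.

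MHC class I molecules show peptides made inside a cell to CD8+ T cells, and nearly every cell carries them. The immunoproteasome cuts proteins into such peptides, the TAP transporter carries them into the endoplasmic reticulum, and Nlrc5 switches on the class I genes together with several of these partners. MHC class II molecules show peptides taken up from outside to CD4+ T cells, are made by dendritic cells, macrophages and B cells, and are also made by enterocytes of the small intestine, under the control of Ciita. Interferons act through STAT and IRF factors and switch on antiviral genes. In these bulk samples, fewer cells of a type and less RNA per cell cannot be told apart.

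Values are counts scaled by the authors to an adjusted library size (normalised CPM), with between 20745155 and 25865823 reads per library on the listed genes, as the value of 1 read implies. Markers of the duodenal epithelium were present in every library, with Alpi between 2008 and 3719 CPM, Vil1 between 2735 and 3383 CPM, Gata4 between 141 and 177 CPM and Pdx1 between 13 and 25.4 CPM. Values by library are given in the order of the replicate numbers. Ppara itself had 53.4, 49.3 and 63.2 CPM in lox/lox mice and 33.1, 40.6, 47.5 and 69.9 CPM in I-KO mice. The library labelled I-KO replicate 4 thus held more Ppara than any lox/lox library, and a gene total does not check the deleted part. Pancreatic acinar genes summed to 289 CPM in I-KO replicate 1 and 48.4 CPM in lox/lox replicate 2, and to between 1.04 and 3.62 CPM in the other 5 libraries. Lox/lox replicate 1 and I-KO replicate 1 stood apart in several member genes. I-KO replicate 4 was the lowest library for 25 of 41 members, but by 0.5 or more on the log2 scale in 1. Results that rest on these libraries are given with and without them.

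At an adjusted p of 0.05, limma called 0 of 41 members, where 0.0299% of all genes tested did, and at an unadjusted p 1 of 41 did, Nlrc5, beside a background of 4.74%. The I-KO and lox/lox libraries overlapped in all 41, where 6.19% of all genes showed no overlap. The fitted difference was below 0 in 34 of 41 members, beside 49.4% of all genes, with a median of -0.12 on the log2 scale (all genes 0.0017). Since the list was drawn up on this contrast, nothing is read from that count. It was 19 of 41, with a median of 0.0031, without lox/lox replicate 1. It was 25 of 41, with a median of -0.03, without I-KO replicate 4, and 28 of 41 without I-KO replicates 1 and 4. The count rose to 37 of 41, with a median of -0.16, without I-KO replicate 1. It was 36 and 37 without lox/lox replicate 2 or 3, and 31 and 39 without I-KO replicate 2 or 3. The median 95% interval of a member reached 0.405 to either side on the log2 scale, and that of all genes 0.245. Differences within these intervals were not detectable with these mice. The intervals are not adjusted for the number of genes tested, so a call at the adjusted p needed a larger difference.

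**Figure D1:**
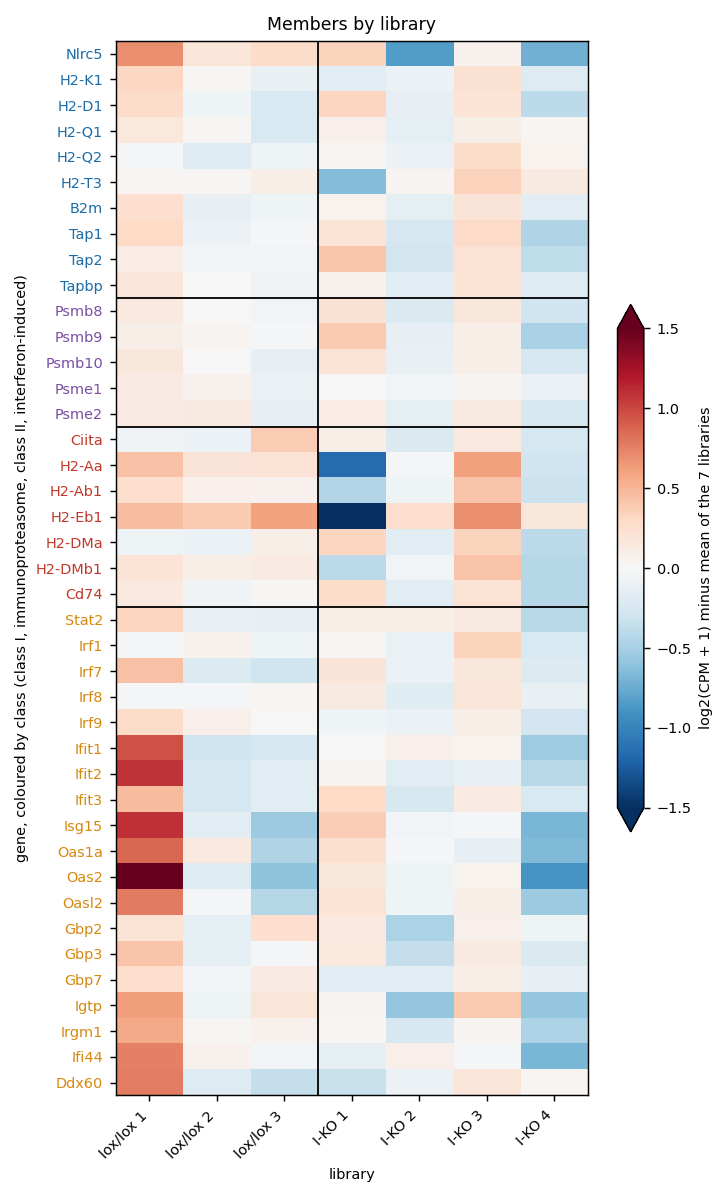
Heat map of the 41 genes (rows, coloured and separated by class) in the 7 libraries (columns), as log2(CPM + 1) minus the mean of the 7 libraries, with lox/lox left and I-KO right of the vertical line. The dark red block is lox/lox replicate 1 in the interferon-induced genes, and the dark blue cells are H2-Aa and H2-Eb1 in I-KO replicate 1.

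The highest values by library were spread unevenly over the classes. Lox/lox replicate 1 was the highest library for 22 of 41 members and for 16 of the 19 interferon-induced genes (84.2%), beside 11.1% of all genes. I-KO replicate 4 was the lowest library for 25 of 41 members (61.0%), beside 17.4% of all genes. I-KO replicate 3 was the highest library for 5 of the 7 class II genes, beside 2016 of all 13399 genes tested. The mean level of the interferon-induced genes, relative to the mean of the 7 libraries, was 0.60 on the log2 scale in lox/lox replicate 1, -0.09 and -0.15 in lox/lox replicates 2 and 3, and 0.07, -0.14, 0.10 and -0.38 in I-KO replicates 1 to 4. For class II it was 0.20, 0.08 and 0.21 in lox/lox and -0.56, -0.06, 0.41 and -0.28 in I-KO replicates 1 to 4. The groups overlapped in all 4 classes.

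**Figure D2:**
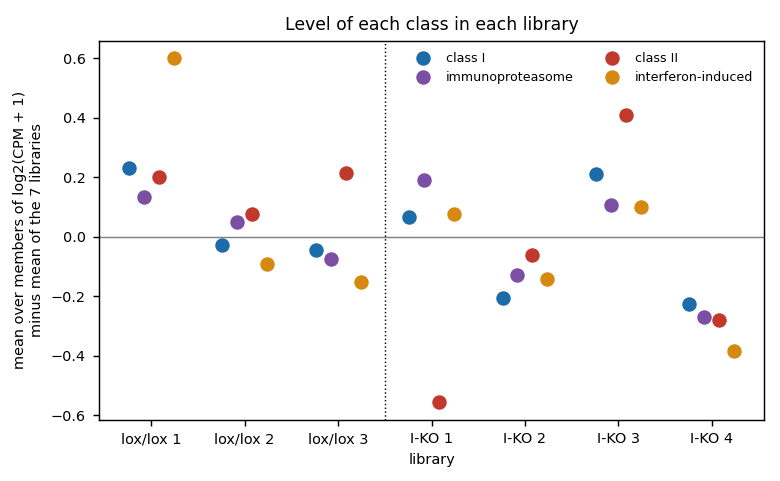
Mean level of each class (colours) in each library (x axis), as the mean over its members of log2(CPM + 1) minus the mean of the 7 libraries. The interferon-induced genes reach 0.60 in lox/lox replicate 1, and class II lies at -0.56 in I-KO replicate 1.

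Among the class I presentation genes the activator Nlrc5 had the largest difference between genotypes, and it was lower in I-KO mice on average. The median difference over the 10 genes was -0.05, with 7 fitted below 0. It turned to 0.01, with 4 below 0, without I-KO replicate 4, and to 0.02, with 3 below 0, without lox/lox replicate 1. Nlrc5, on chr8:94434356-94527272 of GRCm38, had 36.1, 24.9 and 26.6 CPM in lox/lox mice. In I-KO mice its values were 27.7, 11.8, 22.9 and 12.8 CPM. I-KO replicates 2, 3 and 4 lay below every lox/lox library, while I-KO replicate 1 lay above lox/lox replicates 2 and 3. The means were 29.2 ± 6.04 CPM (SD, n = 3) against 18.8 ± 7.80 CPM (SD, n = 4), a log2 difference of -0.68 (SE 0.28, 95% interval -1.32 to -0.03), and leaving out single libraries kept the difference between -0.89 and -0.50.

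The class I chains and their partners had smaller fitted differences than Nlrc5. B2m, the invariant light chain of every class I molecule, on chr2:122147686-122153083, was the most abundant class I gene per length, at 1892 CPM per kb of exon over the 7 libraries. It had 1929, 1484 and 1545 CPM in lox/lox and 1677, 1464, 1846 and 1446 CPM in I-KO mice. The ranges overlapped over most of their extent, with a log2 difference of -0.04 (SE 0.13, 95% interval -0.32 to 0.25). H2-Q2, a non-classical class I chain on chr17:35342242-35346762, had 691, 619 and 678 CPM in lox/lox and 719.6, 665, 857 and 734 CPM in I-KO mice. It had the highest fitted difference of all 41 members, 0.16 (SE 0.10, 95% interval -0.07 to 0.39), and I-KO replicate 2 lay below lox/lox replicates 1 and 3. For the classical chains H2-K1 and H2-D1 the difference was -0.12 and 0.01, for H2-Q1 0.03, and for the loading partners Tap1, Tap2 and Tapbp -0.12, -0.02 and -0.06. H2-D1, H2-Q1, Irf1 and Irf8 turned from above to below 0 when the columns were scaled to equal totals. Class I genes have near-identical copies in this region, so reads may have been split between them in counting, and their levels are uncertain.

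All 5 immunoproteasome genes were fitted below 0, with log2 differences between -0.04 and -0.08, and a median of -0.06. Without I-KO replicate 4 the count was 2 of 5 and the median 0.03. The count was 4 of 5, with a median of -0.01, without lox/lox replicate 1. It stayed at 5 of 5 without I-KO replicate 1, with a median of -0.13, and without I-KO replicates 1 and 4, with a median of -0.05. Psme2, a subunit of the PA28 activator that opens the proteasome, on chr14:55587441-55591113, had the highest level per length of the class, 187 CPM per kb, as well as the lowest difference. It had 359, 362 and 302 CPM in lox/lox and 354, 296, 359.5 and 279 CPM in I-KO mice. I-KO replicates 2 and 4 lay below all lox/lox libraries and I-KO replicates 1 and 3 between them, with a log2 difference of -0.08 (SE 0.12, 95% interval -0.36 to 0.19). The catalytic subunits Psmb8, Psmb9 and Psmb10 had differences of -0.06, -0.07 and -0.04, and Psme1, the partner of Psme2, -0.05. Psmb9 and Tap1 overlap by 212 bases in the GENCODE annotation and lie on opposite strands, and the strand setting of the counting is not given in the sources used here, so reads in the overlap cannot be assigned. Psmb8 lies 495 bases from Tap1, so that these genes and Tap2 form 1 cluster.

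Of the class II genes, H2-Eb1, H2-Aa and H2-Ab1 were lowest in the same library, I-KO replicate 1. H2-Eb1, the β chain of the I-E molecule, on chr17:34305867-34316674, had 256, 244 and 281 CPM in lox/lox mice. The I-KO mice had 30.0, 222, 299 and 208 CPM. I-KO replicate 1 stood at 0.119 of the mean of the other 6 libraries, I-KO replicates 2 and 4 lay below the lox/lox range, and I-KO replicate 3 lay above it. The log2 difference was -0.85 (SE 0.67, 95% interval -2.37 to 0.66), the lowest of all 41 members, and -0.11 (SE 0.14) without I-KO replicate 1.

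H2-Aa, the α chain of I-A, on chr17:34282744-34287823, had 713, 598 and 611 CPM in lox/lox and 235, 519, 808 and 428 CPM in I-KO mice. Here too I-KO replicate 1 was lowest, and I-KO replicate 3 was the highest of all 7 libraries. The log2 difference was -0.49 with all libraries and -0.18 without I-KO replicate 1. H2-Ab1, the β chain of I-A, had 752, 662 and 656 CPM in lox/lox and 462, 597, 840.2 and 499 CPM in I-KO mice. Again I-KO replicate 1 was lowest and I-KO replicate 3 highest, and its log2 difference was -0.24.

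The remaining class II genes were the activator, the invariant chain and the peptide loaders. Ciita, the master activator of class II, on chr16:10480059-10528418, had 68.3, 66.9 and 92.7 CPM in lox/lox and 75.6, 61.0, 78.6 and 59.0 CPM in I-KO mice. I-KO replicate 1 lay inside the lox/lox range, and the log2 difference was -0.14 (SE 0.15, 95% interval -0.48 to 0.20). Cd74, the invariant chain that guides class II molecules to the endosome, was the most abundant class II gene per length, at 1349 CPM per kb. It had 2473, 2156 and 2266 CPM in lox/lox and 2714, 1993, 2593 and 1662 CPM in I-KO mice, highest in I-KO replicate 1, with a log2 difference of -0.06 (SE 0.17, 95% interval -0.44 to 0.32). H2-DMa, a chain of the loader that places peptides in class II molecules, on chr17:34119541-34139101, had 81.9, 80.6 and 91.3 CPM in lox/lox and 107, 76.1, 108 and 65.2 CPM in I-KO mice. It had the highest difference of the class, 0.04 (SE 0.18, 95% interval -0.36 to 0.45), and its groups overlapped. H2-DMb1, its partner chain, had a difference of -0.26, with I-KO replicates 1 and 4 lowest, at 44.0 and 43.4 CPM. The class median was -0.24 with all libraries, -0.16 when I-KO replicate 1 was left out and 0.02 without I-KO replicates 1 and 4 together. I-KO replicates 1 and 4 had the lowest class II levels, -0.56 and -0.28, and were left out together after these were seen. Leaving out the lowest I-KO libraries can raise the median by itself, so nothing is read from the value of 0.02.

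**Figure D3:**
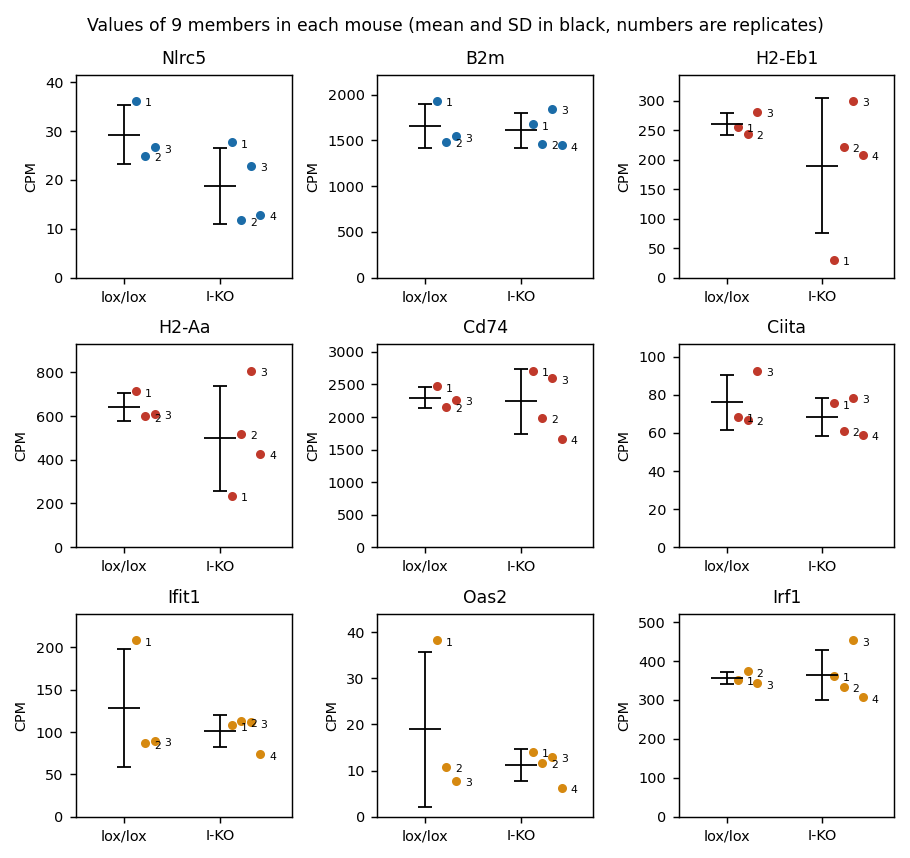
CPM of 9 members in each mouse (points numbered by replicate), with the group mean and SD in black and the y axes starting at 0. Ranges of lox/lox and I-KO overlap in all 9, with H2-Eb1 at 30.0 CPM in I-KO replicate 1 and Oas2 at 38.3 CPM in lox/lox replicate 1 away from the rest.

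The low values of I-KO replicate 1 were not a property of class II genes alone, but of several genes in the same part of chromosome 17, a comparison made after their values were seen. The stretch from the start of H2-K1 to the end of H2-T3, chr17:33996017-36190287 of GRCm38, is 2.19 Mb long and holds 110 tested genes, 14 of them members. I-KO replicate 1 stood apart from the nearest other library by at least 0.5 on the log2 scale in 12 of the 110 genes (10.9%), 7 of them lowest and 5 highest, beside 0.634% of all genes. Each of the other 6 libraries stood apart in between 0 and 3 of these genes. Among the 14 members of the stretch I-KO replicate 1 was lowest for H2-Ab1, H2-Aa, H2-Eb1 and H2-T3, and highest for Psmb9, Psmb8, Tap2 and H2-D1. That is 4 members each way, where over all 13399 genes tested it was lowest for 2592 and highest for 3009. Nothing is read from these ranks alone. H2-T3, the thymus leukaemia antigen made by enterocytes, had 219.6, 217 and 228 CPM in lox/lox and 137, 221, 274 and 236 CPM in I-KO mice. The lox/lox values agreed closely and I-KO replicate 1 lay below them, and the difference was -0.07 with all libraries and 0.13 without I-KO replicate 1.

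Genes of the stretch that are no members went both ways in that library. Btnl6, a butyrophilin-like gene of the enterocyte, had 5.51 CPM in I-KO replicate 1 and between 167 and 223 CPM in the other 6 libraries. Gm8909, a predicted gene beside H2-T3, had 12.6 CPM against 109 to 146 CPM. H2-Bl, a class I-like gene, had 1182 CPM against 474 to 672 CPM, and H2-Ea-ps, the inactive I-E α gene, 15.6 CPM against 4.92 to 6.91 CPM. Of the 27 members outside the stretch, 0 stood apart in I-KO replicate 1. In I-KO replicate 1 the sums of myeloid and of leukocyte markers, 360 and 465 CPM, were the highest of the 7 libraries, and the B and plasma cell sum was 3590 CPM, inside the range of the other libraries. The labels give the same strain for all 7 mice and the study's methods a mainly C57BL/6J background, and whether I-KO replicate 1 shares the MHC alleles of the other mice was not tested, so its values in this stretch may not be comparable with theirs.

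**Figure D4:**
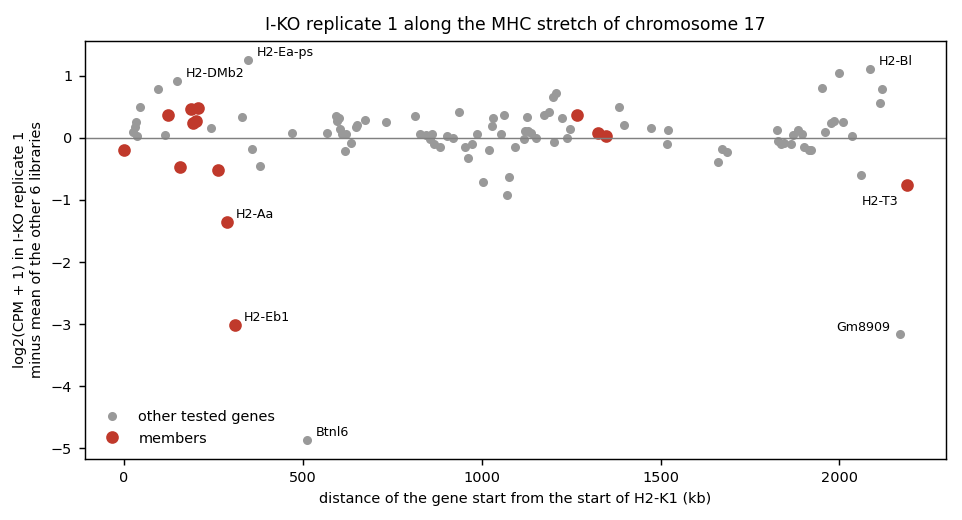
Each point is 1 of 110 tested genes, by the distance of its start from that of H2-K1 (x axis, kb), with log2(CPM + 1) in I-KO replicate 1 minus the mean of the other 6 libraries (y axis). Members are red, and H2-Eb1, H2-Aa and H2-T3 lie below 0 as Btnl6 and Gm8909 do, while H2-Bl and H2-Ea-ps lie above.

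The promoters of H2-Aa and H2-Eb1 are shown because these class II genes carry the spread, with the letters CCAAT, searched on both strands, in capitals. This motif is known as the Y box of class II promoters, where the NF-Y factor binds. The windows span 250 bases before to 50 after the start, from RefSeq on GRCm38.p6, and are written 5′ to 3′ on the strand of the gene.
H2-Aa, chr17:34287774-34288073, minus strand: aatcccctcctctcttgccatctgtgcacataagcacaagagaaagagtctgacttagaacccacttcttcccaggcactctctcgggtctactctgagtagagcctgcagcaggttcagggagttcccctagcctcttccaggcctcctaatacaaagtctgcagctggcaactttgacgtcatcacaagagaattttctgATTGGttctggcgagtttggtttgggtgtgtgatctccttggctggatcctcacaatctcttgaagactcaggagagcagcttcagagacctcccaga
H2-Eb1, chr17:34305617-34305916, plus strand: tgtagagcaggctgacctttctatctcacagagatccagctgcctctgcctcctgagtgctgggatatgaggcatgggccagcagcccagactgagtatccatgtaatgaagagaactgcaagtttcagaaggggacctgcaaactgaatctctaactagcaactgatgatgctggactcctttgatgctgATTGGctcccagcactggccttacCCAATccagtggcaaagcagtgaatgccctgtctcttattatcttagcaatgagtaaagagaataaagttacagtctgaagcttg
H2-Aa holds the motif on the other strand alone and H2-Eb1 holds it on either strand. It was found in 4 of 4 class II members with a window, in 6 of 7 class I members, in 1 of 5 immunoproteasome members and in 9 of 18 interferon-induced members, beside 41.1% of the 27025 genes with a window. Windows existed for 34 of the 41 members.

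Interferon-induced genes were fitted lower in I-KO mice in 16 of 19, with a median of -0.20, and higher in 3. The count was 18 of 19 and the median -0.25 without I-KO replicate 1, and 14 of 19 and -0.13 without I-KO replicate 4. Without lox/lox replicate 1 the count was 6 of 19 and the median 0.01. The sign of this class therefore rested on that library. It stood apart from the nearest other library by at least 0.5 on the log2 scale in 8 of the 19, always as the highest, and in 0 of the other 22 members, beside 0.343% of all genes.

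The 8 genes encode proteins of the antiviral response. Ifit1, which binds viral RNA, on chr19:34640871-34650009, had 209, 86.8 and 89.7 CPM in lox/lox and 108, 113, 112 and 73.7 CPM in I-KO mice. Lox/lox replicates 2 and 3 lay among the I-KO libraries, and lox/lox replicate 1 was 2.15 times the mean of the other 6. Isg15, a ubiquitin-like modifier, on chr4:156199424-156200818, had 118, 48.9 and 37.3 CPM in lox/lox and 71.4, 53.6, 54.3 and 34.0 CPM in I-KO mice, and Oas2, a sensor of double-stranded RNA, on chr5:120730333-120749853, had 38.3, 10.8 and 7.82 CPM and 14.1, 11.8, 13 and 6.28 CPM. In both genes the other lox/lox libraries lay within the I-KO range, and the ratio of lox/lox replicate 1 to the mean of the other 6 was 2.37 for Isg15 and 3.605 for Oas2. The same ratio was 2.52 for Ifit2, 1.99 for Oas1a, 1.84 for Oasl2, 1.95 for Ifi44 and 1.86 for Ddx60. The log2 difference of Oas2 was -0.43 (SE 0.47, 95% interval -1.5 to 0.63) with all libraries and 0.22 (SE 0.28) without lox/lox replicate 1, and that of Ifit1 -0.23 and 0.18.

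Factors that carry or amplify the signal stood closer together. Irf1, a factor induced by interferon-γ, on chr11:53770014-53778374, had the highest level per length of the class, 90.8 CPM per kb. It had 353, 374 and 343 CPM in lox/lox and 363, 335, 454 and 307 CPM in I-KO mice, and lox/lox replicate 1 lay in the middle. Its log2 difference was 0.02 (SE 0.13, 95% interval -0.28 to 0.31). Irf7, the amplifier of type I interferon, on chr7:141262706-141266481, had 238, 152 and 142 CPM in lox/lox and 201, 165, 197 and 152 CPM in I-KO mice. Lox/lox replicate 1 was the highest library and lox/lox replicate 3 the lowest, so that all I-KO values lay inside the lox/lox range, with the highest difference of the class, 0.04 (SE 0.18, 95% interval -0.38 to 0.45). Stat2, a subunit of the factor that binds interferon-stimulated promoters, on chr10:128270559-128292849, had 135, 99.6 and 98.8 CPM in lox/lox and 115, 114, 118 and 80.3 CPM in I-KO mice. I-KO replicate 4 lay below the rest, and the log2 difference was -0.06 (SE 0.16, 95% interval -0.43 to 0.32). For Irf9 the difference was -0.20 and for Irf8 0.01.

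Ifi44 had the lowest difference of the class. On chr3:151730922-151749960, it had 11.3, 6.61 and 6.05 CPM in lox/lox and 5.56, 6.68, 6.20 and 3.51 CPM in I-KO mice, with lox/lox replicate 1 highest and I-KO replicate 4 lowest. The log2 difference was -0.45 (SE 0.23, 95% interval -0.97 to 0.07) and -0.20 without lox/lox replicate 1. The GTPases known for their response to interferon-γ were below 0 with and without that library in 4 of 5, with differences of -0.18 for Gbp2, -0.20 for Gbp7, -0.43 for Igtp and -0.38 for Irgm1, and -0.13, -0.13, -0.23 and -0.21 without it. The other, Gbp3, went from -0.17 to 0.0019. In all 5 the groups overlapped, and Gbp, Ifit and Oas genes have close copies between which reads may have been split.

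**Figure D5:**
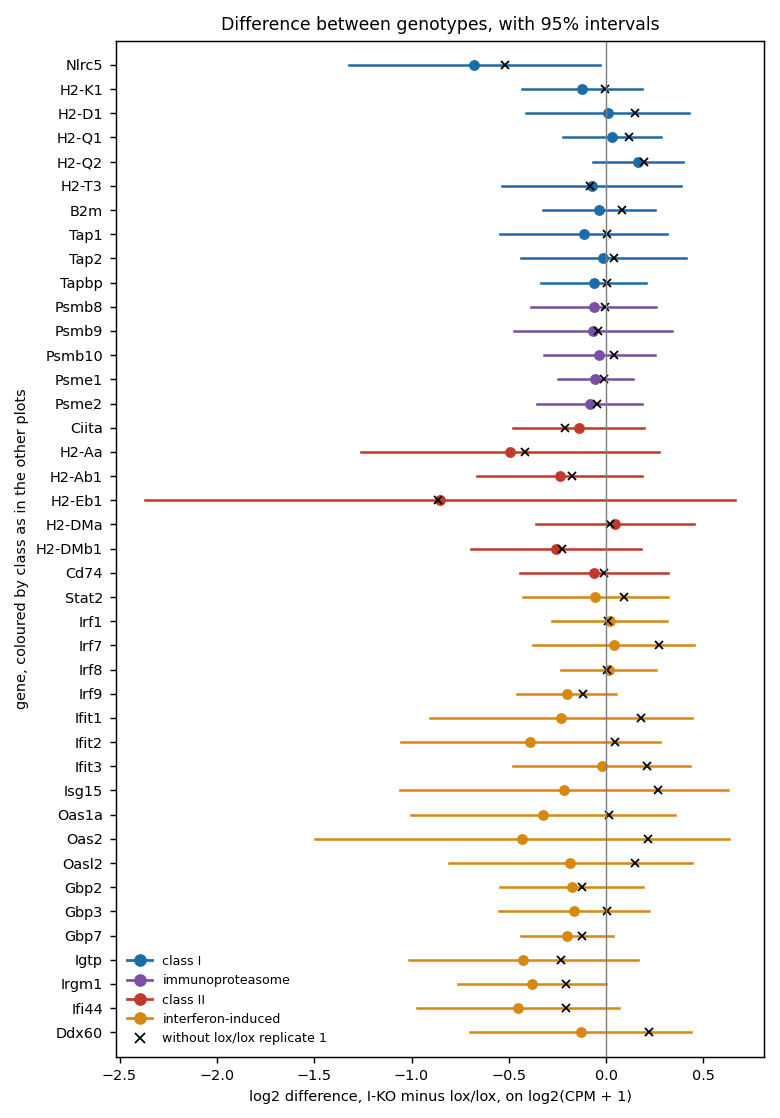
Log2 difference between I-KO and lox/lox on log2(CPM + 1) (x axis) for the 41 genes (y axis, coloured by class), with 95% intervals from limma as lines and crosses for the difference without lox/lox replicate 1. The crosses of the Ifit and Oas genes lie above 0 and their points below, and the interval of Nlrc5 is the one that leaves out 0.

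The promoters of Ifit1, Isg15 and Irf1 show the elements through which interferon acts on these genes, the ISRE (GAAANNGAAA) and the GAS (TTCNNNGAA), searched on both strands and set in capitals together with CCAAT. The ISRE is known from promoters that respond to type I interferon and the GAS from promoters that respond to interferon-γ, and matches of the motifs may share bases.
Ifit1, chr19:34640639-34640938, plus strand: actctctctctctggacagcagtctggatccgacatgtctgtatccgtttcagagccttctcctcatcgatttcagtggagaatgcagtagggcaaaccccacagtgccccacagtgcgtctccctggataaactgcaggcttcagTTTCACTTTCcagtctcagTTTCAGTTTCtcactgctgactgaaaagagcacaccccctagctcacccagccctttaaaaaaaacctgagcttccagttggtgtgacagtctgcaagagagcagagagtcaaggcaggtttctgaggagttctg
Isg15, chr4:156200769-156201068, minus strand: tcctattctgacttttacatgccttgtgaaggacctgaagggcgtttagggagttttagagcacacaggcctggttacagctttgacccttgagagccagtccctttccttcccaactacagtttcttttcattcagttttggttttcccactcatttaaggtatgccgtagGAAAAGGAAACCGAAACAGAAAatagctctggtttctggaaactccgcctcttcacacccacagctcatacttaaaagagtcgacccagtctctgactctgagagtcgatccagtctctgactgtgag
Irf1, chr11:53769764-53770063, plus strand: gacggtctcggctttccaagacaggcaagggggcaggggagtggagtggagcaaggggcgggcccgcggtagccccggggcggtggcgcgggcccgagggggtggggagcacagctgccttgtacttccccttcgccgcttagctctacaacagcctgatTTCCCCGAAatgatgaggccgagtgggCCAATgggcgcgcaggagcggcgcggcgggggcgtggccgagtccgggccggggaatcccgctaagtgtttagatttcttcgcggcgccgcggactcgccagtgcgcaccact
Ifit1 holds the ISRE at 2 places, both on the other strand, and Isg15 at 3 overlapping places. Irf1 holds a GAS and no ISRE, and its second window, further downstream, holds none of the motifs. The ISRE was found in 11 of 18 interferon-induced members with a window (61.1%), in 1 of 7 class I members (B2m), in 1 of 5 immunoproteasome members (Psme1) and in 0 of 4 class II members, beside 3.99% of all genes with a window. Only exact matches to the letters of each motif were counted. A window without a match may hold an element with other letters, so it is not shown to lack one. The GAS was found in 6 of 18 interferon-induced members and in 7 of 34 members in all, beside 9.55% of all genes. Of the 8 genes that stood apart in lox/lox replicate 1, 7 had a window and 4 of these held the ISRE, against 7 of the 11 interferon-induced genes that did not stand apart.

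The activators were set against the genes they control across the 7 libraries, in 20 relations. Nlrc5 and Tap1 had a Pearson's r of 0.83 (exact permutation p = 0.0214) and a Spearman's rho of 0.75 (exact permutation p = 0.0663), and r was 0.37 without I-KO replicates 2 and 4, the libraries farthest from the median of Nlrc5. Nlrc5 and Psmb8 had an r of 0.84 (exact permutation p = 0.0232) and a rho of 0.64 (exact permutation p = 0.139), and r was 0.20 without the same libraries. Leaving out the extremes of Nlrc5 narrows its range, which can lower r by itself, so the fall does not show what these relations rest on. Ciita and H2-DMa had an r of 0.74 (exact permutation p = 0.0554) and a rho of 0.89 (exact permutation p = 0.0123), and r was 0.95 without lox/lox replicate 3 and I-KO replicate 4. Ciita and H2-Eb1 had an r of -0.04 and a rho of 0.61. None of the 20 passed after Benjamini-Hochberg adjustment, with a smallest adjusted exact permutation p of 0.144 for r and 0.246 for rho. All values come from the same libraries, so a library that stands apart enters each relation.

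The wider pathway was followed in 131 other genes in 8 lists chosen by function, though with earlier results of these data known. Of these genes 122 were in the table and all 122 were tested. By limma 0 passed an adjusted p of 0.05, beside the 0.0299% of all genes, and 3 passed an unadjusted p of 0.05, beside the 4.74% of all genes. These were Canx, a chaperone of class I chains (-0.28 on the log2 scale), Herc6, the ligase of Isg15 (-0.49), and Rfxank, a subunit of the complex on class II promoters (0.29). The remaining class I genes had a median of -0.09 in 16 genes, from -0.41 for H2-M2 to 0.33 for H2-Bl, whose value was highest in I-KO replicate 1. The factors on MHC promoters had a median of 0.01 in 8 genes, from -0.19 for Creb1 to 0.29 for Rfxank. The remaining class II genes had a median of 0.08 in 9 genes, from -0.06 for H2-Eb2 to 0.21 for H2-Oa. The constitutive proteasome genes had a median of -0.04 in 6 genes, from -0.10 for Psme4 to 0.02 for Psmb5.

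Upstream of the interferon-induced genes, sensors of nucleic acids had a median of -0.09 in 11 genes, from -0.36 for Zbp1 to 0.08 for Aim2. Interferon receptors and signalling genes had a median of 0.04 in 18 genes, from -0.36 for Socs3 to 0.20 for Irf5. Another 40 interferon-induced genes had a median of -0.07, from -0.49 for Herc6 to 0.17 for Oas1c, and the median was 0.06 without lox/lox replicate 1. GTPases and other genes of the interferon-γ response had a median of -0.16 in 14 genes, from -0.46 for Gbp6 to 0.24 for Gbp1, and -0.15 without that library. Lox/lox replicate 1 was the highest library for 21 of the 40 other interferon-induced genes, and for 2 of the 14 genes of the interferon-γ list, beside 11.1% of all genes. Among the interferon-γ GTPases that are members, it was highest for Igtp, Irgm1, Gbp3 and Gbp7, but not for Gbp2. Its ratio to the mean of the other 6 libraries was 1.62, 1.58, 1.43 and 1.25 in the former and 1.18 in Gbp2. Lox/lox replicate 1 was thus high in genes of both kinds. It stood apart by at least 0.5 in Rsad2, Cmpk2, Mx2, Trim30a and Herc6 of the former list, and in Usp18, the enzyme that removes Isg15, of the signalling list. Rsad2, which encodes viperin, had 46.1, 12.4 and 10.02 CPM in lox/lox and 20.4, 19.9, 18.1 and 10.6 CPM in I-KO mice, where as for Isg15 lox/lox replicate 1 came first and I-KO replicate 1 next. Not analysed here were Ifnb1, Ifng, Ifnl2 and Ifnl3, which have no row in the table.

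Markers of other cells of the duodenum were summed per library. The genotypes were compared by a two-sided exact permutation test of the mean log2 sums, over 35 assignments of the libraries, with a smallest possible p of 0.0286. B and plasma cell markers, 10 of 10 present, summed to 3198 to 4524 CPM in lox/lox and 2646 to 4322 CPM in I-KO mice (exact permutation p = 0.400). T cell and intraepithelial lymphocyte markers, 9 of 10, summed to 201 to 212 CPM and 158 to 279 CPM (exact permutation p = 0.857). Macrophage and dendritic cell markers, 12 of 12, summed to 237 to 335 CPM and 300 to 360 CPM (exact permutation p = 0.371), and general leukocyte markers, 5 of 5, to 305 to 426 CPM and 345 to 465 CPM (exact permutation p = 0.429). No marker of these 4 lists was at 0 in any library. Lox/lox replicate 1, highest in the interferon-induced genes, had the lowest myeloid and leukocyte sums of the 7 libraries. I-KO replicate 4, lowest for most members, had the lowest B and plasma cell sum.

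Epithelial markers, 10 of 10, summed to 36454 to 44489 CPM in lox/lox and 38062 to 47394 CPM in I-KO mice (exact permutation p = 0.457). Markers of duodenal identity, 6 of 6, summed to 3927 to 4597 CPM and 2629 to 3734 CPM, without overlap (exact permutation p = 0.0571), and I-KO replicate 4 was again lowest. Only 1 of the 6, Fabp1, had a lower mean in I-KO mice, 2495 ± 522 CPM (SD, n = 4) against 3669 ± 485 CPM (SD, n = 3). Fabp1, a fatty acid binding protein, is a known target of PPARα. The other 5 summed to 369 to 558 CPM in lox/lox and 518 to 604 CPM in I-KO mice, with overlap. Smooth muscle markers, 6 of 6, summed to 1063 to 1320 CPM and 1102 to 1550 CPM (exact permutation p = 0.429), and acinar markers, 9 of 10, of which 6 were at 0 in some library, to 1.04 to 48.4 CPM and 1.1 to 289 CPM (exact permutation p = 0.686). Over the 8 lists the smallest p after Benjamini-Hochberg adjustment of the exact permutation tests was 0.457. The part of these cells in the values of the 41 genes was not tested.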

How the data were processed

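Duodenal RNA of 7 mice was sequenced with the TruSeq stranded mRNA kit in single reads, and samples were grouped by the genotype in the labels. The submitters' processing notes name FastQC 0.11.2, TopHat2 2.0.13, Picard 1.80, HTSeq 0.6.1, edgeR and the mm10 build. The authors deposited signal values, counts per gene scaled to an adjusted library size (CPM) to 2 decimals. One row without a gene name was dropped. The value of 1 read was between 0.0393 and 0.0530 CPM, but in 5 libraries fewer than 95% of low values fell close enough to whole reads, so no count test was run.

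A genotype-only model was fitted to log2(value + 1) with limma 3.58.1 (R 4.3.3), after genes without a value above 1 in 3 or more libraries had been removed, and p-values were adjusted by Benjamini and Hochberg's method over all genes tested. Fold changes on this scale understate those of low genes. The script was tested on simulated data. Marker sums, on the log2 scale, and correlations were tested by exact permutation with numpy 2.4.6, in Python 3.11.15. Coordinates and exon lengths are from GENCODE M21 on GRCm38, promoter windows from RefSeq. Alternatives were a pseudocount of 0.5, no filter, median-of-ratios size factors, equal column totals, other thresholds, a block for the replicate number and single libraries left out.

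The members and all lists were chosen with earlier results of these data known. Named in every library were Nlrc5, Ciita, Stat2 and B2m and, in each class, the genes with the highest level per kb, the largest rise and the largest fall. Of the other lists, genes past the adjusted threshold and the largest rise and fall were named. H2-Aa, H2-Ab1, H2-T3, the genes apart in lox/lox replicate 1, the genes of the stretch on chromosome 17, Canx and the remaining members named were added after their values were seen. P-values set a difference or relation against the variation between these mice and do not measure the size of that variation.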

Additional observations from a re-analysis of the deposited data

Results flagged for a closer look

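Among the 4 I-KO libraries, the gap of the highest or lowest library to its nearest neighbour was divided by the range of the group, and compared with Dixon's 95% critical value for 4 samples. Of 53 quantities searched 4 were beyond it, where chance gives about 2.65. Stat2 had a ratio of 0.883, with 80.3 CPM in I-KO replicate 4 against 114 to 118 CPM in the other 3. Ifit1 had a ratio of 0.870, with 73.7 CPM in I-KO replicate 4 against 108 to 113 CPM. Gbp7 had a ratio of 0.839, with 19.0 CPM in I-KO replicate 3 against 15.7 to 16.2 CPM. The pancreatic acinar sum had a ratio of 0.991, with 289 CPM in I-KO replicate 1 against 1.1 to 3.62 CPM. Groups of 3, such as the lox/lox libraries, were not tested in this way, so lox/lox replicate 1 could not appear here.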

How the results depend on the processing

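By limma 0 of 41 members passed under each alternative run apart from an unadjusted p of 0.05, which 1 of 41 passed. Of the 122 other pathway genes 0 passed, and 3 at an unadjusted p. With 1 library left out 26 of 41 members changed sign, and 11 kept their sign under all 13 alternatives. With equal column totals the median of all genes shifted to -0.03 and 38 of 41 members were below 0. The log2 difference of the T cell and intraepithelial lymphocyte sum, 0.02 with all libraries, was -0.0142 with equal column totals and between -0.11 and 0.16 with 1 library left out. That of the acinar sum, 0.85, was between -0.94 and 2.68 with 1 library left out, and -0.94 without I-KO replicate 1, which held most of it. The cause of the other changes was not tested. The replicate numbers did not pair the mice, with correlations of -0.01, 0.18 and -0.01 between same-numbered libraries. With the replicate number as a block, where I-KO replicate 4 has no partner and drops out, 0 members were called and 25 of 41 were below 0. Tests on counts with edgeR and DESeq2 were not run, since whole reads were not recovered. Leaving out I-KO replicates 1 and 4 together was chosen after seeing the data. Read depth was not varied, so its part in the errors was not tested.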
